A study of Mus musculus with 24 samples.

Results

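The miR-143 and miR-145 cluster gives 4 mature microRNAs (miRNAs), mmu-miR-143-3p and mmu-miR-143-5p from one hairpin precursor and mmu-miR-145a-5p and mmu-miR-145a-3p from its neighbour. They were chosen by name, and all 4 of 4 were listed among the 1009 miRNAs measured. Small RNA was sequenced from mammary glands of C57BL/6 female mice, with 6 mice at each of 4 stages and 1 library a mouse. W10 names mice aged 10 weeks, P18 mice at gestation day 18, Lac7 mice that had nursed for 7 days, and Inv3 mice at day 3 of involution, the regression of the gland after weaning. No group carried a transgene or a drug treatment. The abdominal and inguinal glands were homogenised whole, so each library mixed epithelium, fat, stroma, vessels and blood.

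A miRNA hairpin is cut into a duplex, from which one arm is usually kept by an Argonaute protein and the other is mostly degraded. miR-143 and miR-145 are cut from one long transcript and are known for their abundance in smooth muscle, pericytes and other contractile or stromal cells, where they restrain regulators of cell growth and favour the contractile state. In the mammary gland such cells lie around the vessels and ducts and, as myoepithelium, around the alveoli that expel milk. The neighbouring long non-coding RNA gene Carmn is known as the host of both hairpins and for its part in smooth muscle.

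In GRCm38 the Mir145a precursor (70 bases) lies on the minus strand at chr18:61647825-61647894 and the Mir143 precursor (63 bases) at chr18:61649196-61649258, with 1301 bases between them. RefSeq places both precursors inside Carmn (chr18:61645878-61665538). In GENCODE M21 the Carmn model lies upstream and ends 366 bases short of Mir143, so the hairpins are intergenic there. The long non-coding RNA gene Bvht lies on the other strand, with 352 bases between it and Mir145a. The paralogue Mir145b lies 7372940 bases from Mir143 on the same chromosome.

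The libraries held 660346 to 1165321 reads on listed miRNAs, and values are reads per 1e6 of these (RPM). A count of 0 allowed at most 2.57 to 4.54 RPM, for counting error only. Lac7 libraries were the shallowest, with a median of 693167 reads against 952080 to 1030978 at the other stages. All 4 members were far above these limits, from 55 reads for the scarcest (mmu-miR-143-5p in 1 W10 mouse) to 310001 reads for the most abundant (mmu-miR-143-3p in 1 Inv3 mouse).

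miR-143-3p was among the most abundant miRNAs of the gland at every stage, and its share of the reads was highest in involution. It averaged 92349 ± 6872 RPM in the W10 group, 145529 ± 7070 RPM at P18, 138521 ± 7231 RPM at Lac7 and 246220 ± 29288 RPM at Inv3 (SD, n = 6 each). By stage mean it ranked 3 of 1009 miRNAs at W10, 2 at P18, and 1 at both Lac7 and Inv3. It was the most abundant miRNA in 6 of 6 Inv3 libraries, in 5 of 6 Lac7 libraries, in 3 of 6 P18 libraries and in 0 of 6 W10 libraries. The 4 members together took 9.39% of the W10 reads, 14.7% of the P18 reads, 13.98% of the Lac7 reads and 24.9% of the Inv3 reads.

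The other arm of the hairpin, miR-143-5p, was listed far below it, at 119.8 to 261.6 RPM by stage mean. miR-145a-5p, the arm that is usually kept, averaged 953 to 1838 RPM, and miR-145a-3p averaged 195.5 to 339.9 RPM. At Inv3 these stage means ranked 48 of 1009 for miR-145a-5p, 92 for miR-145a-3p and 104 for miR-143-5p. The paralogue miR-145b was represented by 5 reads in all, in 4 of 24 libraries and at most 2 in a library, which is below the limit that a count of 0 allows in each of them.

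**Figure D1:**
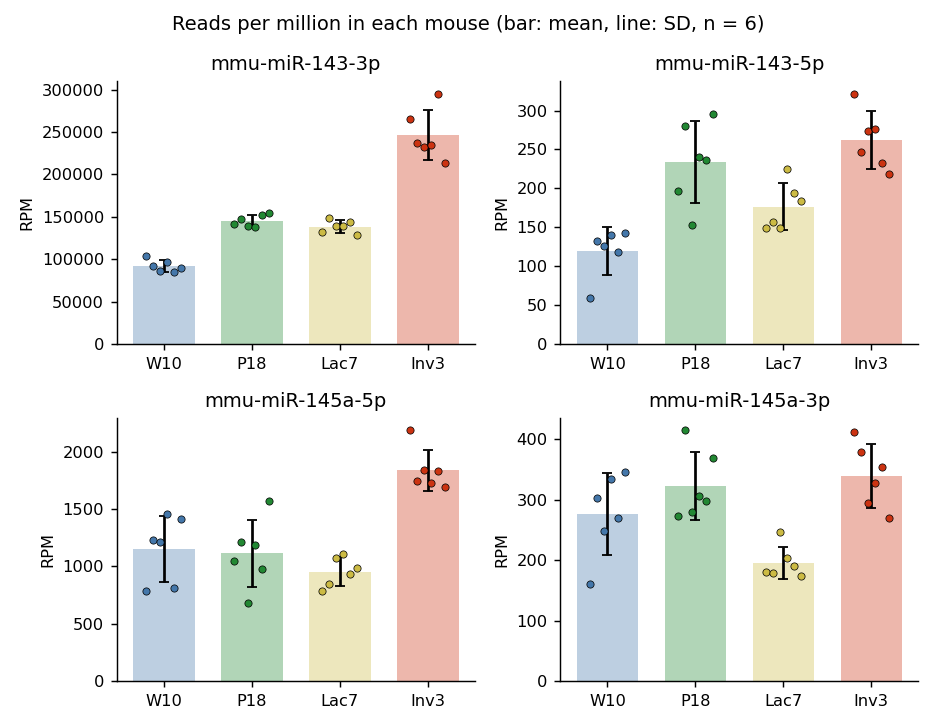
Level of each of the 4 miRNAs in RPM (vertical axes, from 0) at the 4 stages, with 1 point a mouse, bars for the stage mean and lines for the SD (n = 6). For miR-143-3p and miR-145a-5p the 6 Inv3 mice sit above every mouse of the other 3 stages, and for miR-143-5p 1 W10 mouse sits apart at 59.3 RPM.

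From W10 to P18, when the ducts branch and alveoli form, both arms of miR-143 rose and neither arm of miR-145a passed the test. In the W10 mice miR-143-3p ran from 84721 RPM at its lowest through a median of 91456 RPM to 103515 RPM at its highest. In the P18 mice the same values were 137783, 144837 and 154585 RPM. Every P18 mouse was thus above every W10 mouse, and the fold of the means was 1.58. In limma, a linear model fitted over all 544 miRNAs tested on log2(RPM + 1), the log2 fold change was 0.66 (SE 0.087, adjusted p = 5.9e-07).

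miR-143-5p ran from 59.3 RPM through a median of 129.1 RPM to 143.2 RPM at W10 and from 153.4 RPM through 238.4 RPM to 295.4 RPM at P18. The groups did not overlap, and the log2 fold change was 0.98 (SE 0.19, limma adjusted p = 1.3e-04). miR-145a-5p ran from 781 RPM through 1219 RPM to 1454 RPM at W10 and from 680 RPM through 1119 RPM to 1571 RPM at P18. These ranges overlapped almost wholly, and the log2 difference of -0.05 (95% interval -0.40 to 0.30, limma adjusted p = 0.84) became 0.20 with size factors, a scaling to the typical miRNA in place of the total.

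miR-145a-3p differed by 0.25 on the log2 scale from W10 to P18 (95% interval -0.09 to 0.59, limma adjusted p = 0.23), and by 0.50 with size factors, where it passed the test (limma adjusted p = 0.011). So 2 of 4 members were called higher, against 12.1% of all miRNAs tested, and 0 of 4 lower, against 29.4%. Separation of the mice was not rare, since 53 of the 544 miRNAs were higher and 92 lower without overlap. The median log2 difference was 0.45 over the 4 members and -0.32 over all 544 miRNAs. That median over all miRNAs was -0.12 with size factors, so values in RPM stood about 0.20 lower on the log2 scale in this comparison. The same shift from RPM to size factors was 0.21 from P18 to Lac7, -0.10 from Lac7 to Inv3, 0.35 from W10 to Lac7, 0.31 from W10 to Inv3 and 0.10 from P18 to Inv3.

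From P18 to Lac7, when milk secretion starts, only miR-145a-3p among the 4 passed the test in limma. It ran from 273.1 RPM through a median of 302.4 RPM to 415.3 RPM at P18 and from 174.2 RPM through 185.5 RPM to 246.2 RPM at Lac7. The groups did not overlap, and miR-145a-3p fell by 0.72 on the log2 scale (SE 0.16, limma adjusted p = 7.1e-04), a mean 1.66-fold lower at Lac7. With size factors the log2 fold change was -0.41 (limma adjusted p = 0.031). This 1 of 4 called lower stands beside 31.4% of all miRNAs, and the 0 of 4 called higher beside 13.8%. Without overlap, 54 of the 544 miRNAs were higher and 104 lower.

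miR-143-3p ran from 128704 RPM through 139004 RPM to 148114 RPM at Lac7, overlapping the P18 mice. Its log2 difference was -0.07 in RPM (95% interval -0.25 to 0.11, limma adjusted p = 0.53), but the direction turned with size factors (0.23, limma adjusted p = 0.083) and with DESeq2 (0.23, adjusted p = 0.046), so the data give no settled direction between P18 and Lac7. miR-145a-5p ran from 781 RPM through 959 RPM to 1108 RPM at Lac7, and its difference of -0.19 (95% interval -0.54 to 0.16, limma adjusted p = 0.38) likewise became 0.11 with size factors. miR-143-5p ran from 148.6 RPM through 170.3 RPM to 224.8 RPM at Lac7 and differed by -0.39 (95% interval -0.78 to 0.0027, limma adjusted p = 0.098). Without P18 mouse 3, its lowest P18 mouse, that difference was -0.50 and passed the test (limma adjusted p = 0.033).

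From Lac7 to Inv3, when secretion has ceased and alveoli collapse, all 4 members rose in RPM, and the call for miR-143-5p was lost under some scalings. miR-143-3p ran from 212944 RPM through a median of 235976 RPM to 295263 RPM at Inv3, and every Inv3 mouse was above every Lac7 mouse. Its log2 fold change was 0.82 (SE 0.087, limma adjusted p = 1.6e-08), a mean 1.78-fold higher. miR-145a-5p ran from 1695 RPM through 1790 RPM to 2187 RPM at Inv3, again without overlap, and rose by 0.95 (SE 0.17, limma adjusted p = 4.2e-05), a mean 1.93-fold higher.

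miR-145a-3p ran from 270.1 RPM through 341.0 RPM to 412.8 RPM at Inv3, above every Lac7 mouse, and rose by 0.79 on the log2 scale (SE 0.16, limma adjusted p = 2.5e-04). miR-143-5p ran from 218.8 RPM through 260.2 RPM to 321.8 RPM at Inv3, and the lowest of these mice overlapped the highest Lac7 mouse. It rose by 0.57 (SE 0.19, limma adjusted p = 0.015), but this call was lost with size factors (0.40, limma adjusted p = 0.075) and with DESeq2 (0.39, adjusted p = 0.056). The 4 of 4 called higher stand beside 27.9% of all miRNAs called higher and 18.9% called lower. Groups of mice did not overlap for 74 of the 544 miRNAs that were higher and 61 that were lower. The median log2 difference was 0.81 over the members and 0.28 over all 544 miRNAs.

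RPM are shares of one total, so a miRNA that takes a large part of the reads lowers the values of the others. The 4 members took 13.98% of the reads at Lac7 and 24.9% at Inv3. The share left for all other miRNAs together was thus 12.7% smaller at Inv3, or 0.20 on the log2 scale. This is arithmetic on the mean shares, and single miRNAs moved in both directions. When RPM were recomputed over the reads that were not on the members, the log2 fold change from Lac7 to Inv3 was 1.02 for miR-143-3p and 1.15 for miR-145a-5p. Both had to be larger on that scale than in RPM, since the members' share was larger at Inv3. Other scalings gave smaller rises than RPM. For miR-143-3p and miR-145a-5p these were 0.65 and 0.78 with size factors, 0.66 and 0.78 with DESeq2, and 0.78 and 0.90 with edgeR.

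**Figure D2:**
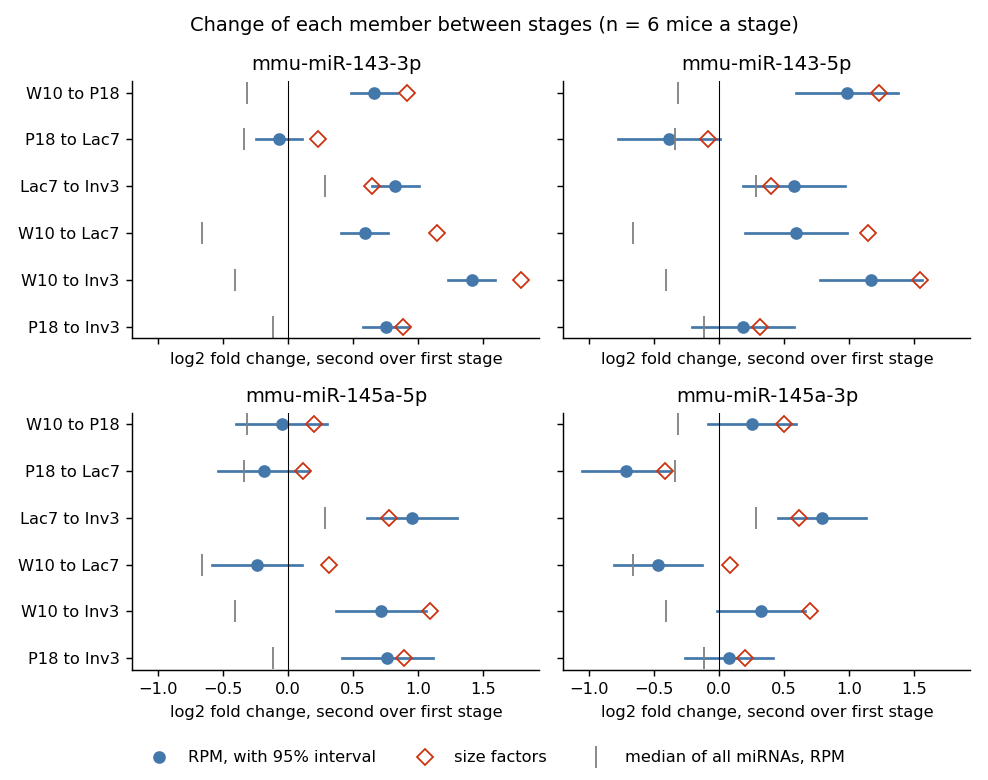
Log2 fold change of each member (horizontal axis) in the 6 comparisons of stages, with filled points and lines for RPM and their 95% intervals, open diamonds for size factors and grey ticks for the median of all 544 miRNAs. The miR-143-3p points lie to the right of the grey ticks in all 6 comparisons, and the miR-145a-3p diamond lies on the other side of 0 from its filled point for W10 to Lac7.

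The remaining comparisons share the same mice, so they are not independent of those above. From W10 to Lac7, miR-143-3p was higher by 0.59 (SE 0.087, limma adjusted p = 1.3e-06) and miR-143-5p by 0.59 (SE 0.19, limma adjusted p = 0.0084), neither with any overlap between mice. miR-145a-3p was lower by -0.47 in RPM (SE 0.16, limma adjusted p = 0.014), with overlapping mice, and this direction flipped to 0.09 with size factors (limma adjusted p = 0.65) and to 0.05 with DESeq2 (adjusted p = 0.80). miR-145a-5p differed by -0.24 in RPM (95% interval -0.59 to 0.11, limma adjusted p = 0.21) and by 0.31 with size factors (limma adjusted p = 0.078). Thus 2 of 4 were called higher, against 18.2% of all miRNAs, and 1 of 4 lower, against 48.5%. Of the 544 miRNAs, 67 were higher and 160 lower with no overlap between mice.

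For both arms of miR-143 the widest gap lay between W10 and Inv3, whereas for both arms of miR-145a it lay between Lac7 and Inv3 in RPM. miR-143-3p was 2.67-fold higher at Inv3 (log2 fold change 1.41, SE 0.087, limma adjusted p = 1.0e-12), with no overlap. Of the 544 miRNAs tested it had the smallest p in this comparison, and it ranked 18 by the size of its log2 rise. miR-143-5p was 2.18-fold higher (1.16, SE 0.19, limma adjusted p = 2.4e-05) and miR-145a-5p 1.60-fold higher (0.71, SE 0.17, limma adjusted p = 0.0014), both without overlap.

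miR-145a-3p differed by 0.32 from W10 to Inv3 (95% interval -0.02 to 0.66, limma adjusted p = 0.12), and by 0.70 with size factors, where it passed the test (limma adjusted p = 9.2e-04). The 3 of 4 called higher stand beside 7.9% of all miRNAs, and the 0 of 4 called lower beside 31.2%. With no overlap, 16 of the 544 miRNAs were higher and 66 lower from W10 to Inv3. From P18 to Inv3, miR-143-3p was higher by 0.75 (SE 0.087, limma adjusted p = 1.7e-07) and miR-145a-5p by 0.76 (SE 0.17, limma adjusted p = 0.0013), both without overlap. The less abundant arms differed by 0.18 for miR-143-5p (95% interval -0.21 to 0.57) and 0.07 for miR-145a-3p (95% interval -0.27 to 0.41). These 2 of 4 called higher stand beside 10.8% of all miRNAs, and the 0 of 4 called lower beside 17.6%. From P18 to Inv3, 23 of the 544 miRNAs were higher and 45 lower with no overlap. Each of the counts of 0 of 4 members above was also 0 at an unadjusted limma p under 0.05 and with edgeR, and with DESeq2 all but 1 were, where miR-143-3p was called higher at Lac7 than at P18.

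In order of its levels, miR-143-3p was lowest at W10, then Lac7, P18 and Inv3, and of the neighbours in RPM only Lac7 and P18 did not differ beyond their spread. For miR-143-5p the order was the same, but neither Lac7 and P18 nor P18 and Inv3 differed by the test. miR-145a-5p was highest at Inv3, and the means of the other 3 stages, 953 RPM at Lac7, 1113 RPM at P18 and 1151 RPM at W10, did not differ beyond their spread. miR-145a-3p was lowest at Lac7, and its means at W10, P18 and Inv3, of 276.9, 323.5 and 339.9 RPM, did not differ by the test in RPM. With size factors and with DESeq2 both arms of miR-145a were lowest at W10 and not at Lac7, but neither arm differed between W10 and Lac7 by the test. With edgeR miR-145a-3p stayed lowest at Lac7, with a log2 difference of -0.033 from W10.

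Ratios between members were taken within each library, where the scaling of the library cancels. They were compared by a two-sided exact permutation test of 6 mice against 6, whose smallest possible p is 0.00216, with adjustment over 18 tests. The 7 ratio differences called below were called on means, and with medians in their place each missed the threshold (exact permutation adjusted p = 0.0501). For the arms of miR-145a the ratio was lower at P18 than at the later stages. miR-145a-5p was 2.44 to 4.26 times as abundant as miR-145a-3p in the P18 mice (median 3.56) and 4.33 to 5.68 times in the Lac7 mice (median 4.80). These groups did not overlap, with a log2 difference of 0.53 (exact permutation p = 0.00216, adjusted p = 0.019).

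In the Inv3 mice the same ratio ran from 4.60 through a median of 5.28 to 6.28, above every P18 mouse (log2 difference 0.69, exact permutation p = 0.00216, adjusted p = 0.019). The W10 mice ran from 3.03 through 4.22 to 4.88 and were lower than the Inv3 mice by a log2 difference of 0.39 (exact permutation adjusted p = 0.026). That last call was lost without Inv3 mouse 5, although the log2 difference was then 0.40 (exact permutation adjusted p = 0.052).

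miR-143-3p was far more abundant than miR-143-5p, with median ratios of 695 in the W10 mice, 609 at P18, 816 at Lac7 and 905 at Inv3. Of the 6 comparisons only P18 to Inv3 passed the test (log2 difference 0.57, exact permutation adjusted p = 0.026), and it did not without Inv3 mouse 2 or mouse 5 (exact permutation adjusted p = 0.052 at the highest). In W10 mouse 1 the ratio was 1745, against 630.3 to 718 in the other W10 mice. Without that mouse the log2 difference from W10 to Inv3 was 0.47, in place of 0.25, and passed the test (exact permutation adjusted p = 0.0078).

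The ratio of the 2 hairpins, taken as miR-143-3p to miR-145a-5p, had a median of 73.5 at W10 and of 129 at P18, 142.6 at Lac7 and 131 at Inv3. It was higher than at W10 by a log2 difference of 0.71 at P18, 0.83 at Lac7 and 0.70 at Inv3 (exact permutation adjusted p = 0.045, 0.026 and 0.026). The call for P18 was lost without any 1 of 9 of the 12 mice, and that for Inv3 without Inv3 mouse 2, 4 or 5, with exact permutation adjusted p up to 0.083 and 0.061. Between P18, Lac7 and Inv3 the differences were 0.12, -0.13 and -0.01, and none passed the test. These ratios are of reads, which were not calibrated to molecules.

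**Figure D3:**
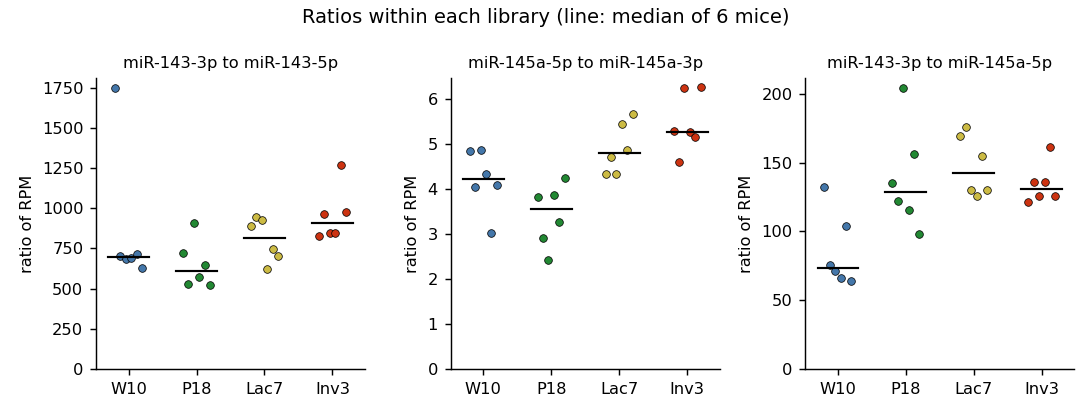
Ratios of RPM within each library (vertical axes, from 0) for the 2 arms of miR-143, the 2 arms of miR-145a and the 2 kept arms, with 1 point a mouse and lines at the stage medians. The ratio of the miR-145a arms is lower in all 6 P18 mice than in every Lac7 or Inv3 mouse, and 1 W10 mouse stands alone at 1745 in the ratio of the miR-143 arms.

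Mice of one stage also differed from each other. The coefficient of variation over 6 mice was 4.86% to 11.9% for miR-143-3p and 9.82% to 26.5% for miR-145a-5p. Over the 24 mice, after the stage means were taken away, miR-143-5p and miR-145a-5p moved together with Pearson's r = 0.79 (permutation p = 1.0e-05, the smallest the 100000 permutations can give, adjusted over 14 relations 1.4e-04) and Spearman's rho = 0.79 (permutation p = 6.0e-05, adjusted 8.4e-04). Within the stages r was 0.78 in the W10 mice, 0.92 at P18, 0.58 at Lac7 and 0.78 at Inv3. Without the 2 mice farthest from the median, r was 0.67.

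The 2 arms of miR-145a had r = 0.69 (permutation p = 3.5e-04, adjusted 0.0025) and rho = 0.70 (permutation p = 4.9e-04, adjusted 0.0034), with r of 0.64 to 0.80 within the stages and 0.73 without the 2 farthest mice. miR-143-5p and miR-145a-3p had r = 0.74 (permutation p = 0.0014, adjusted 0.0064) and rho = 0.64 (permutation p = 0.0021, adjusted 0.0097). This relation rested in part on 2 mice, since r was 0.54 without them and no longer passed the test, and within Lac7 it was -0.10.

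miR-143-3p did not show such a relation with any other member. Its r was -0.06 with miR-143-5p (rho = 0.21), 0.16 with miR-145a-5p (rho = 0.23) and 0.13 with miR-145a-3p (rho = 0.36), with permutation adjusted p of 0.90, 0.66 and 0.73 for r and of 0.53, 0.53 and 0.24 for rho. Whether these coefficients differ from those among the other 3 members was not tested. W10 mouse 1 was one such case. It had the lowest W10 value of miR-143-5p (59.3 RPM, 55 reads, exact 95% interval 44.7 to 77.2 RPM), of miR-145a-5p (781 RPM) and of miR-145a-3p (160.7 RPM), and the highest of miR-143-3p (103515 RPM).

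**Figure D4:**
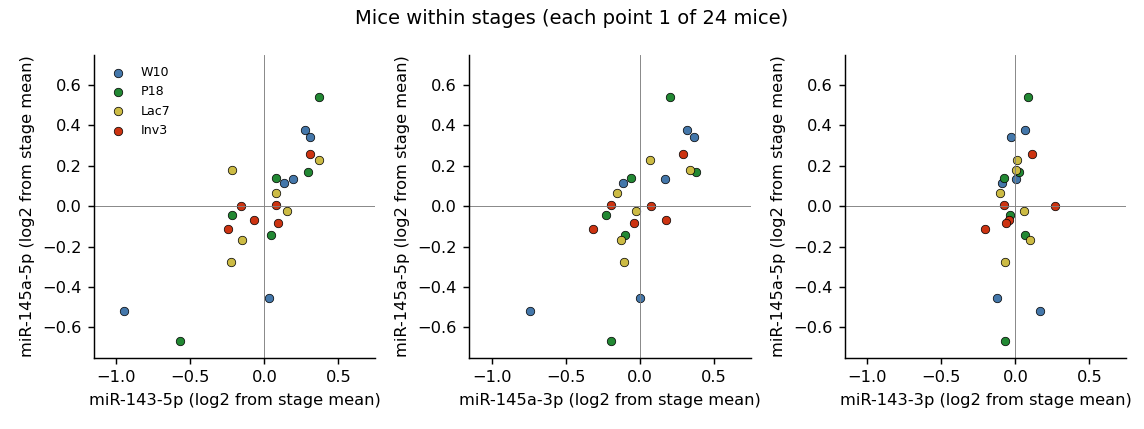
Each of 24 mice as its distance from the mean of its stage, in log2 units, for miR-145a-5p (vertical axes) against miR-143-5p, miR-145a-3p and miR-143-3p (horizontal axes), with colours for the stages. The points rise together in the first pair of panels (r = 0.79 and 0.69) and form a narrow upright band in the last (r = 0.16).

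Since the glands were taken whole, fewer cells of a type and less RNA per cell cannot be told apart. The levels were therefore set beside lists of miRNAs known from single cell types, none of which holds a member. For comparison with the counts below, 12.1% of all miRNAs tested were called higher and 29.4% lower from W10 to P18. These shares were 13.8% and 31.4% from P18 to Lac7 and 27.9% and 18.9% from Lac7 to Inv3. They were 7.9% and 31.2% from W10 to Inv3 and 10.8% and 17.6% from P18 to Inv3. The fibroblast list (7 of its 8 miRNAs listed, led by miR-199a-3p) summed to 76852 to 108425 RPM in the W10 mice, 50046 to 62437 RPM at P18, 18000 to 25183 RPM at Lac7 and 43310 to 68164 RPM at Inv3. By stage mean miR-199a-3p made up most of this sum, with 82291 of 89929 RPM at W10 and 19785 of 22260 RPM at Lac7. From W10 to P18, 0 of 7 were called higher and 6 of 7 lower, and from P18 to Lac7 again 0 and 6 (1 and 6 at an unadjusted p in both). From Lac7 to Inv3, 6 of 7 were called higher and 1 lower. From W10 to Inv3, 0 were called higher and 6 lower by limma in RPM (the same at an unadjusted p), against 1 and 3 with size factors or DESeq2 and 1 and 2 with edgeR. With size factors, edgeR and DESeq2 the counts were 1 higher and 6 lower from W10 to P18, and 1 higher and 4 to 5 lower from P18 to Lac7.

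Between W10 and P18 most of the fibroblast list was thus lower while miR-143-3p was higher, under each of these scalings. The ratio of miR-143-3p to the summed list, a measure added after the values were seen, was 0.891 to 1.21 in the W10 mice, 2.41 to 3.08 at P18, 5.25 to 7.195 at Lac7 and 3.71 to 5.52 at Inv3. The log2 difference of this ratio was 1.36 from W10 to P18 and 2.17 from W10 to Inv3. In both, miR-143-3p rose and the summed list fell, each without overlap, so the ratio could not overlap. A test adds nothing there. From P18 to Lac7 the ratio was higher by 1.25, with no overlap (exact permutation p = 0.00216, adjusted over 24 tests 0.0035). From Lac7 to Inv3 it was lower by -0.43 (exact permutation p = 0.0065, adjusted 0.0082). For miR-145a-5p the log2 difference of the same ratio was 1.47 from W10 to Inv3, where the lack of overlap was fixed in the same way. From Lac7 to Inv3 it was -0.30 (adjusted exact permutation p = 0.11, and 0.039 without Lac7 mouse 1).

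The endothelium list (3 miRNAs, led by miR-126a-3p) had stage means of 16965 to 20216 RPM, of which miR-126a-3p made up most. From W10 to P18, 2 of its 3 miRNAs were called lower (log2 fold changes -0.71 for miR-126a-5p and -0.70 for miR-126b-3p), from P18 to Lac7 3 of 3 were called higher, and from P18 to Inv3 2 of 3 were. From Lac7 to Inv3, 0 of its 3 miRNAs were called higher and 1 lower. From W10 to Inv3 none was called in either direction by limma in RPM, also at an unadjusted p. With size factors in limma, with edgeR and with DESeq2, 1 was called higher. The ratio of miR-143-3p to this list rose from a median of 6.95 at Lac7 to 14.6 at Inv3 (log2 difference 1.04) and from 5.001 at W10 to 8.59 at P18 (0.74), and fell from P18 to Lac7 (-0.32), each with no overlap (exact permutation p = 0.00216, adjusted 0.0035). For miR-145a-5p the ratio was higher at Inv3 than at Lac7 by a log2 difference of 1.17 (adjusted exact permutation p = 0.0035), and the difference from W10 to P18 was 0.04 (adjusted 0.88).

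As a sum, the epithelium list (11 miRNAs, led by miR-200a-3p) was highest at Lac7. From W10 to P18, 8 of 11 were called higher and 0 lower, from P18 to Lac7 7 and 2, and from Lac7 to Inv3 1 and 10. Its stage means were 23890 RPM in the W10 mice, 67851 RPM at P18, 136727 RPM at Lac7 and 55663 RPM at Inv3, and the Inv3 mice ranged from 29598 to 86794 RPM. Not every miRNA of the list followed this sum. miR-205-5p averaged 437.1 RPM at W10, 460.7 RPM at P18, 154.8 RPM at Lac7 and 688.4 RPM at Inv3. It was the 1 called higher from Lac7 to Inv3 (log2 fold change 2.06, SE 0.25, limma adjusted p = 1.5e-07). Over the 24 libraries miR-205-5p stood 6th among those most like miR-145a-5p (r = 0.62). miR-143-3p was lowest in Inv3 mouse 6, which had the most epithelial miRNA of that stage. Over the 6 Inv3 mice r between miR-143-3p and the summed epithelium list was -0.70, against 0.36 to 0.68 at the other stages. At Inv3 r was also 0.82 with the striated muscle list, 0.52 with fibroblasts and -0.39 with endothelium. These are descriptions with no test, of shares of one total of reads.

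The striated muscle list (7 of 8 listed, led by miR-133a-3p) had stage means of 11645 RPM in the W10 mice, 1023 RPM at P18, 2167 RPM at Lac7 and 390 RPM at Inv3, so miR-143-3p was highest where these were lowest. From W10 to Inv3, 6 of its 6 tested miRNAs were called lower by limma in RPM, and 5 by limma with size factors, by edgeR and by DESeq2. None was called higher by any of these or at an unadjusted p. After the stage means were taken away, none of the 8 relations of miR-143-3p or miR-145a-5p with the fibroblast, endothelium, striated muscle and epithelium lists passed the permutation test. The largest r were -0.41 for miR-143-3p with epithelium (rho = -0.10, permutation p = 0.28, adjusted 0.56) and 0.40 for miR-143-3p with fibroblasts (rho = 0.37, permutation p = 0.13, adjusted 0.31). With size factors the second r was 0.61 and passed the test (permutation adjusted p = 0.038). For miR-145a-5p, r was -0.35 with fibroblasts and 0.24 with endothelium (permutation p = 0.051 and 0.10, adjusted 0.18 and 0.29). Within W10, P18, Lac7 and Inv3 the first was -0.80, -0.65, -0.56 and 0.61. The second was 0.75, 0.84, 0.72 and -0.52, so both signs turned at Inv3. Single stages of 6 mice were not tested.

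The lymphocyte and myeloid lists moved from Lac7 to Inv3 in the direction of the members. Of the lymphocyte list (led by miR-342-3p) 3 of 3 and of the myeloid list (led by miR-142a-5p) 4 of 4 were called higher then, against 27.9% of all miRNAs. From W10 to Inv3, 3 of 3 and 2 of 4 were called lower in RPM, but with size factors 1 of 3 lymphocyte miRNAs was lower and 2 of 4 myeloid miRNAs were higher. Of the red blood cell list (led by miR-451a) 1 of 4 was called higher and 1 lower from Lac7 to Inv3, against 27.9% and 18.9% of all miRNAs. The summed mean of this list was 996.8 RPM and then 855.2 RPM. The liver miRNA miR-122-5p was at most 1.99 RPM in the W10 mice but reached 2062 RPM in P18 mouse 6 and 625.6 RPM in Inv3 mouse 2. P18 mouse 6 had the highest P18 values of miR-143-3p, miR-143-5p and miR-145a-5p, and leaving it out changed no call of a member between stages. The part that any of these cell types had in the levels of the members was not tested.

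**Figure D5:**
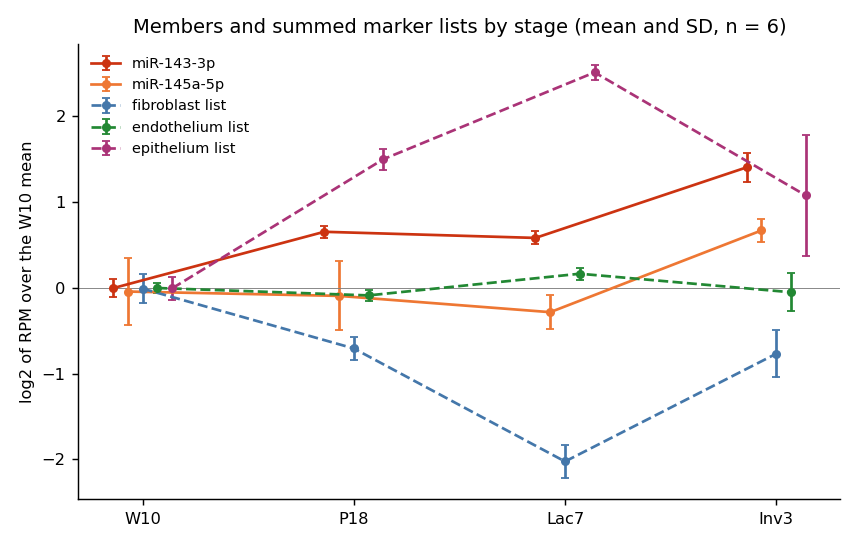
Log2 of RPM over the W10 mean (vertical axis) at the 4 stages for miR-143-3p and miR-145a-5p (solid) and the summed fibroblast, endothelium and epithelium lists (dashed), as mean and SD of 6 mice. miR-143-3p lies above its W10 level at every later stage while the fibroblast list lies below it, and from Lac7 to Inv3 both rise.

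Over the 24 libraries the miRNAs most like miR-143-3p, among 157 with a mean of at least 100 RPM, were its own arm miR-143-5p (r = 0.73 of log2(RPM + 1)), miR-34a-5p (0.68), miR-31-5p (0.62), miR-145a-5p (0.61) and miR-221-3p (0.53). Those most like miR-145a-5p were miR-27a-3p (0.77), miR-145a-3p (0.70), miR-34c-5p (0.70), miR-34a-5p (0.66) and miR-143-5p (0.63). These are descriptions over libraries that share 4 stages and one total, and they carry no test. Both hairpins thus had 1 of the other's products among the 5 most alike. Of the remaining products, miR-145a-3p stood 19th for miR-143-3p (0.35), and miR-143-3p stood 8th for miR-145a-5p (0.61).

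The mature sequences of the most alike miRNAs that are no members, from RefSeq on GRCm38.p6, are shown to compare their seeds, bases 2 to 8 in capitals, which pair with target messages.
miR-34a-5p: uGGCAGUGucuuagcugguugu
miR-31-5p: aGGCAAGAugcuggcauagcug
miR-221-3p: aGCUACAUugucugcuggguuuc
miR-27a-3p: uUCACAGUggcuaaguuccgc

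These 4 lie at chr4:150068473-150068494 on the plus strand, chr4:88910614-88910635 on the minus strand, chrX:19146307-19146329 on the minus strand and chr8:84208727-84208747 on the plus strand, in that order. No 2 of these 4 share a seed. Their seeds were not compared with those of the members or of miR-34c-5p, whose sequences were not used here, and miR-34c-5p carries the family name of miR-34a-5p. miR-34a-5p, a miRNA known as a target of p53, averaged 191.7 RPM in the W10 mice, 261.1 RPM at P18, 222.3 RPM at Lac7 and 469.1 RPM at Inv3, and rose from Lac7 to Inv3 by 0.99 on the log2 scale (SE 0.22, limma adjusted p = 6.2e-04). miR-27a-3p rose by 0.64 in that step (SE 0.17, limma adjusted p = 0.0037) and miR-31-5p by 0.64 (SE 0.21, limma adjusted p = 0.013), while miR-221-3p differed by 0.08 (95% interval -0.14 to 0.30).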

How the data were processed

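Small RNA was isolated with the mirVana kit, libraries were made with the QIAseq miRNA kit, and the authors assigned reads with QuickMIRSeq to miRBase 22. The submitters' processing notes also name Trimmomatic 0.36, cutadapt, FastQC, MultiQC and GRCm38. The authors deposited RPM, of which 100% were whole multiples of 1 read (within 0.1 reads), so reads were recovered. The use of molecular identifiers is not given in the sources used here. The design text swaps the days of lactation and involution (3 and 7), and those of the library labels and the paper (7 and 3) were used.

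All miRNAs whose mean reached 1 RPM in any stage (544) entered 1 two-sided limma fit (version 3.58.1, eBayes with a trend, R 4.3.3) of log2(RPM + 1) over the 24 libraries, with Benjamini-Hochberg adjustment and calls at 0.05. Fold changes on this scale understate changes of low miRNAs. Ratios and correlations were tested by permutation, with python 3.11.15 and scipy 1.17.1. The scripts were tested on simulated data. Alternatives were size factors, RPM without the members' reads, edgeR 4.0.16 and DESeq2 1.42.0 on the recovered reads, other pseudocounts and filters, 12 libraries only, a block for mouse number, and leaving out mice. P-values measure the spread between mice.

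The members, the marker lists and the rule for named miRNAs (the 4 members, miR-145b, the 5 miRNAs most like miR-143-3p and miR-145a-5p, and each list's counts and most abundant miRNA) were chosen with earlier results of these data known. The members' mature sequences were not used here. Same-numbered mice of different stages were not paired, since the mean correlation of their deviations over 158 miRNAs was -0.05, against 0.004 for other pairs.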

Additional observations from a re-analysis of the deposited data

Results flagged for a closer look

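Of 28 groups of 6 mice examined for a mouse far from the rest (Dixon's ratio of gap to range), 5 stood out, where chance flags about 1 group in 20. W10 mouse 1 had 59.3 RPM of miR-143-5p against 118.1 RPM in the nearest mouse, and its ratio of miR-143-3p to miR-143-5p, here of RPM + 1, was 1716 against 712. Inv3 mouse 5 had the highest Inv3 ratio of miR-143-3p to miR-143-5p, at 1265 against 969, and of miR-143-3p to miR-145a-5p, at 161 against 136. Inv3 mouse 1 had 2187 RPM of miR-145a-5p against 1841 RPM in the nearest mouse.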

How the results depend on the processing

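Among the members' log2 fold changes, 215 of 240 settings kept the direction and the side of the threshold, as did 284 of 288 fits without 1 mouse. With size factors, miR-145a-3p was 0.086 from W10 to Lac7 (reversed), 0.70 from W10 to Inv3 and 0.50 from W10 to P18 (both now called), and miR-143-5p was 0.40 from Lac7 to Inv3 (no longer called). With DESeq2, miR-143-3p from P18 to Lac7 was 0.23 (reversed), miR-145a-3p was 0.054 from W10 to Lac7 (reversed), 0.69 from W10 to Inv3 and 0.48 from W10 to P18 (both called), and miR-143-5p was 0.39 from Lac7 to Inv3 (not called). With edgeR, miR-145a-3p was -0.033 from W10 to Lac7 (not called), 0.72 from W10 to Inv3 and 0.53 from W10 to P18 (both called). Over the reads not on the members, miR-145a-3p was 0.59 from W10 to Inv3 (called). Differences not called in RPM also changed sign, still without a call. miR-143-3p from P18 to Lac7 was 0.23 with size factors and 0.091 with edgeR. miR-145a-5p with size factors, edgeR and DESeq2 was 0.31, 0.20 and 0.29 from W10 to Lac7 and 0.20, 0.26 and 0.20 from W10 to P18 (0.037 over the reads not on the members), and from P18 to Lac7 it was 0.11 with size factors and 0.092 with DESeq2. The shift of the scaling is given with the results, and other causes were not tested.

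With the mouse number as a block, miR-145a-3p was -0.38 from W10 to Lac7 and no longer called (limma adjusted p = 0.067), and no other call of a member changed. The numbers share only a label (33 pairs of libraries with the same number, mean correlation -0.05).

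Without 1 mouse, miR-143-5p from P18 to Lac7 ranged from -0.50 to -0.32 and miR-145a-5p from W10 to P18 from -0.16 to 0.082. The log2 ratio of miR-143-3p to miR-143-5p ranged from 0.48 to 0.67 (P18 to Inv3) and from 0.16 to 0.47 (W10 to Inv3) and from -0.073 to 0.22 (W10 to Lac7), that of miR-143-3p to miR-145a-5p from 0.62 to 0.83 (W10 to Inv3) and from 0.59 to 0.85 (W10 to P18) and from -0.10 to 0.11 (P18 to Inv3), and that of miR-145a-5p to miR-145a-3p from 0.30 to 0.44 (W10 to Inv3) and from -0.39 to -0.21 (W10 to P18, called without W10 mouse 5). Of such ratios, 190 of 216 kept their direction and side. With medians in place of means, the 7 called log2 ratios, then 0.57, 0.43, 0.33, 0.57, 0.80, 0.95 and 0.83, all missed the threshold by a little (adjusted p = 0.0501). Of the differences near 0, miR-143-3p to miR-143-5p from W10 to Lac7 turned to 0.034 with a pseudocount of 10 RPM and 0.23 with medians, and miR-143-3p to miR-145a-5p from P18 to Inv3 to 0.027 with medians. Ratios to the lists, added after the data were seen, kept direction and side in 23 of 24 with medians and in 273 of 288 without 1 mouse. The exceptions concerned miR-145a-5p, which to the endothelium list from W10 to P18 was -0.015 with medians and -0.054 to 0.16 without 1 mouse. Of the correlations, 35 of 42 kept direction and side. With size factors miR-143-3p and the fibroblast list had r = 0.61 (now called), miR-143-3p and endothelium r = 0.19, and miR-145a-5p and striated muscle r = -0.0065 (both turned). Over the reads not on the members miR-143-3p and miR-143-5p had r = 0.046 (turned), and without the 2 farthest mice miR-143-5p and miR-145a-3p had r = 0.54 (no longer called), miR-143-3p and miR-145a-3p r = -0.0054, and miR-145a-5p and striated muscle r = -0.23 (both turned). Depth limits miR-143-5p, at 55 to 375 reads a library, the most.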
